A study of Mus musculus with 16 samples.

Results

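GABA synthesis genes and marker genes of inhibitory neurons were followed across the hippocampus of 16 mice. The 10 genes were chosen by name: Gad1, Gad2 and Slc32a1, which make GABA and load it into vesicles, the neuropeptide genes Sst, Npy, Vip and Cck, the calcium-binding protein genes Pvalb and Calb2, and the secreted glycoprotein gene Reln. They are 10 of 18287 gene names in the data and cover 27 of 80137 transcripts, and all 10 were found. All mice were wild type C57BL/6 males of 3 months, and both hippocampi of a mouse were pooled into 1 library of total RNA.

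There were 4 mice in each of 4 groups. Homecage mice (HC) stayed in their cages without handling, shocks or escape trials. Control mice (Ctrl) were put into the shuttle box on the first day without inescapable shocks and were given 30 trials of an escapable foot shock of 0.4 mA. Mice labelled non-learned helpless (NLH) or learned helpless (LH) had first received 180 inescapable foot shocks of 0.4 mA and were given the same 30 trials 24 h later. NLH and LH were assigned the same treatment: they were separated by how often and how fast they escaped, and tissue was taken 3 h after that test. An escape ended the shock of its trial, so LH mice, which failed more often, also received more shock time in the test. Ctrl vs. HC thus holds handling, the shuttle box and the test session together. NLH vs. Ctrl and LH vs. Ctrl hold the inescapable shocks. LH vs. NLH holds the behavior after them together with the unequal shock time in the test, which also enters LH vs. Ctrl. Ctrl vs. HC, NLH vs. Ctrl and LH vs. Ctrl share the Ctrl mice.

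GABA is the main inhibitory transmitter of the hippocampus and is made from glutamate by 2 forms of glutamate decarboxylase. GAD67, the product of Gad1, supplies much of the GABA of the cell, and GAD65, the product of Gad2, sits at nerve endings. The vesicular transporter VGAT, the product of Slc32a1, then fills synaptic vesicles. Hippocampal interneurons are commonly sorted by what else they express: Pvalb marks fast-spiking cells that contact cell bodies and axon starts, Sst marks cells that contact dendrites, Vip marks cells that mostly contact other interneurons, and Npy, Cck, Calb2 and Reln mark further, overlapping classes. Some of these markers are not limited to interneurons: pyramidal cells also express Cck, mossy cells of the mouse dentate gyrus express Calb2, and Cajal-Retzius cells express Reln and Calb2.

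The level of a gene is given as FPKM, a fragment count divided by transcript length and by library size, summed over the transcripts that carry the gene's name. Because of the division by length, levels can be compared between genes. Over the 16 mice, Cck was the highest member with a mean of 69.0 FPKM (rank 173 of 18287 genes), and then came Sst with 51.8 FPKM and Gad1 with 41.6 FPKM. Gad2 with 13.6 FPKM, Pvalb with 13.4 FPKM and Npy with 10.7 FPKM formed a middle tier, and Calb2 with 6.60 FPKM, Reln with 6.32 FPKM and Slc32a1 with 4.31 FPKM a lower one. Vip was the lowest with 2.23 FPKM, at rank 8068. In this order, Gad2 and Pvalb differed by less than the SD of either over the mice (2.02 and 1.64 FPKM), and so did Calb2 and Reln (2.15 and 1.61 FPKM). Sst and Gad1 differed by less than the SD of Sst (10.3 FPKM) but not by less than that of Gad1 (4.25 FPKM). In a bulk sample, fewer cells of a type and less RNA per cell cannot be told apart.

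The LH libraries stood apart from each other. A median-ratio size factor, the median over genes of a library's FPKM relative to the gene's geometric mean over libraries, lay between 0.920 and 1.13 in the 12 other mice, but was 1.15 and 1.19 in LH replicates 1 and 2 and 0.948 and 0.812 in LH replicates 3 and 4. LH replicates 3 and 4 also listed 10846 and 15504 transcripts at exactly 0, against 4872 to 7352 in the other mice. The library depth is not given with the values and was estimated from the spacing of low FPKM values at 20200000 to 38000000 fragments, with LH replicate 4 the lowest. Only 59.2% to 64.3% of the low values used fell within 0.1 of a whole fragment, so the depth is approximate. On this scale, the fewest fragments in any mouse, taken for each gene by itself, were about 2231 for Gad1, 62.5 for Npy and 41.2 for Vip. At these lowest counts, counting error alone gives a coefficient of variation of 12.7% for Npy and 15.6% for Vip.

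No member passed the test in any of the 4 comparisons. The test was limma on log2(FPKM + 0.1) of all 16 mice with Benjamini-Hochberg adjustment over all 18287 genes, and a call was an adjusted p under 0.05. The count was 0 of 10 in Ctrl vs. HC, NLH vs. Ctrl, LH vs. Ctrl and LH vs. NLH alike, and of all genes 0%, 0.00547%, 0% and 0.0109% were called in these comparisons. At an unadjusted limma p under 0.05 there was 1 member in Ctrl vs. HC (Vip), 0 in NLH vs. Ctrl, 1 in LH vs. Ctrl (Gad2) and 0 in LH vs. NLH, where 2.7%, 5.59%, 11.5% and 7.54% of all genes lay. The study's own test of group means of FPKM, assuming equal variances and without adjustment, gave at a p under 0.05 0 of 10 members in each comparison and 8.5%, 9.57%, 8.01% and 3.5% of all genes. The mice of the groups compared never separated without overlap for a member gene, while 5.31%, 6.12%, 5.69% and 2.14% of all genes did so. Exact permutation tests of each member in each comparison, 40 in all, gave a smallest unadjusted p of 0.0857 (Pvalb in LH vs. Ctrl), where 4 mice against 4 can reach 0.0286. Adjusted over 40 tests, a single member could not pass 0.05 at that lowest p, so these tests say nothing on whether a member passes after adjustment.

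**Figure D1:**
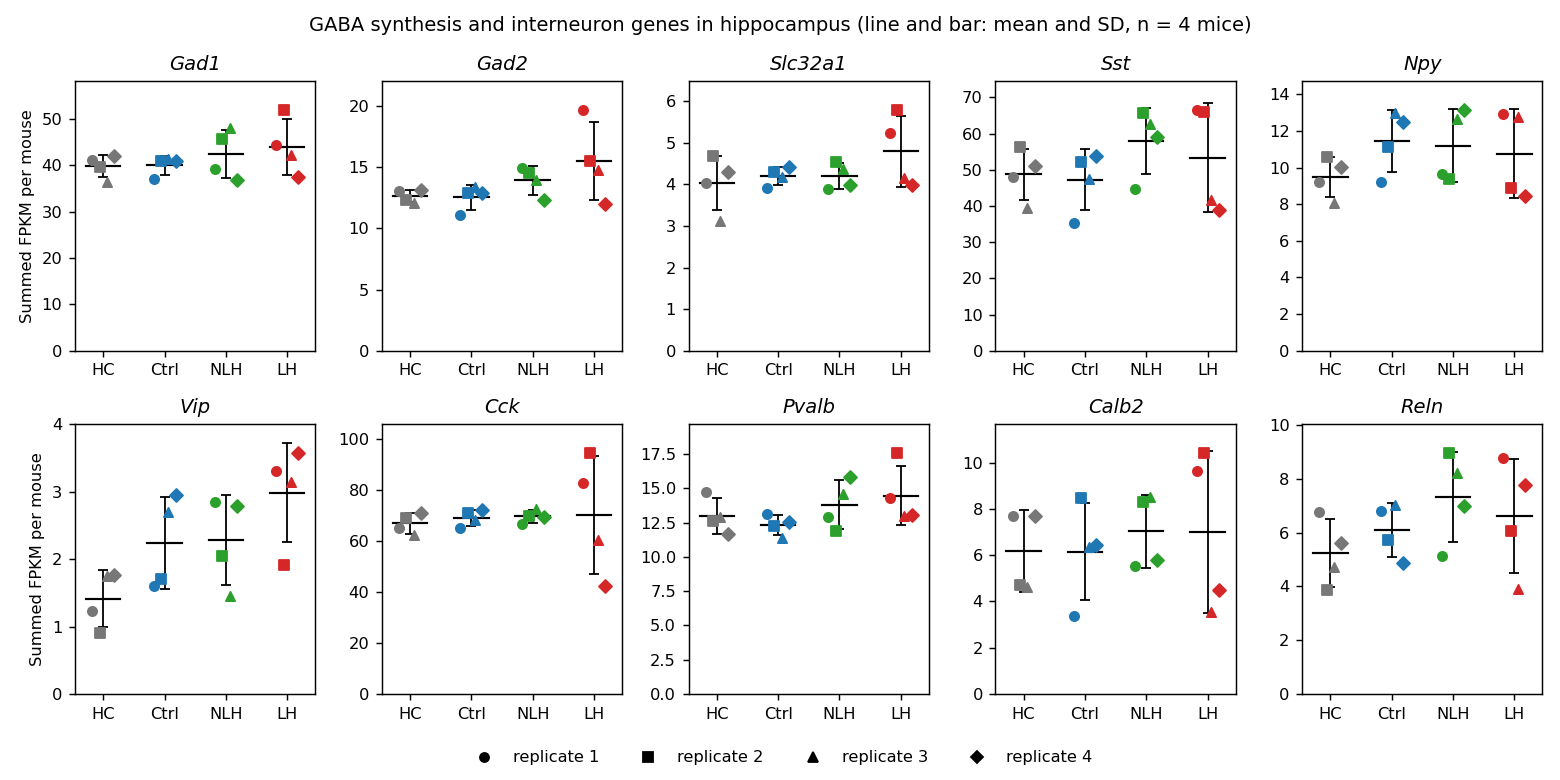
Summed FPKM of the 10 member genes in each of the 16 mice, by group (HC, Ctrl, NLH, LH), with the marker shape giving the replicate number and the line and bar the mean and SD of 4 mice. The groups overlap for all 10 genes, and in LH the Cck values spread from 42.5 to 94.6 FPKM while the other groups hold between 62.3 and 72.7 FPKM.

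The member differences lay on both sides of 0. In Ctrl vs. HC, 6 members had a positive log2 difference and 4 a negative one, with a median of 0.03, against 0.02 over all genes. In NLH vs. Ctrl the counts were 8 positive and 2 negative with a median of 0.11, against 0.06 over all genes. In LH vs. Ctrl they were again 8 and 2 with a median of 0.14, against 0.00 over all genes, and in LH vs. NLH they were 5 and 5 with a median of 0.00, against -0.06. These counts describe the list and carry no test.

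Gad1 (chr2:70553072-70602014, plus strand, mm10 build) had group means between 39.8 FPKM in HC and 44.0 FPKM in LH. Its FPKM was 41.2, 39.5, 36.5 and 42.1 in HC, 37.0, 40.9, 41.3 and 40.8 in Ctrl, 39.1, 45.6, 48.1 and 36.9 in NLH, and 44.4, 51.9, 42.1 and 37.5 in LH, in the order of replicates 1 to 4. The lowest mice of the groups lay close together, between 36.5 and 37.5 FPKM, and 2 NLH and 3 LH mice lay above every HC and Ctrl mouse. The largest of its 4 differences was in LH vs. Ctrl, with a log2 difference of 0.13 (SE 0.11, 95% interval -0.10 to 0.36) and a limma adjusted p of 0.690. As a fold, this interval ran from 0.932 to 1.28.

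Below the level of the gene, Gad1 was divided between transcripts. Of 5 named Gad1 transcripts, Gad1-206 (ENSMUST00000140478.1) held 53.7% of the gene's FPKM and Gad1-201 (ENSMUST00000094934.10) 40.9%, and the other 3 held between 1.53% and 2.00% each. Gad1-201 is the full-length protein-coding transcript, with 17 exons and 3355 bases in GENCODE vM21. Gad1-206 is annotated as a processed transcript, without a coding sequence, with 16 exons and 2996 bases. The transcripts have 14 exons at identical positions. Gad1-206 starts at an exon of its own of 77 bases, chr2:70566377-70566453, which lies in the intron of Gad1-201 between exon 2 (chr2:70563768-70563910) and the first shared exon at chr2:70567186. The stretches below show where the transcripts join the shared part: for Gad1-201 they are the last 79 of the 434 bases ahead of it, and for Gad1-206 all 77. Each runs 5′ to 3′ on the plus strand, with the bases of the transcript's own exon in lower case and the first bases of the shared exon in capitals.
Gad1-201, coding part of exon 2: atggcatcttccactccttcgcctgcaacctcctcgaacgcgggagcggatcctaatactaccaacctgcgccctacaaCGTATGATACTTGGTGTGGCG
Gad1-206, exon 1: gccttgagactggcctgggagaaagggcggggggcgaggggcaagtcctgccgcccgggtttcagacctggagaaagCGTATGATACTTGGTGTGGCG
From the capitals on, 2919 bases are the same, and Gad1-201 has 2 further bases at its 3′ end. Ahead of the shared part, Gad1-201 has 434 bases, 12.9% of its length, and Gad1-206 has 77 bases, 2.57% of its length, so the division of reads between them rests on these bases and the junctions that follow them.

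Gad1-201 was the only one of the 12 member transcripts holding at least 10% of their gene whose groups did not overlap in a comparison, namely NLH vs. Ctrl. It was singled out after its values had been seen. Its FPKM was 15.4, 16.1, 11.3 and 14.5 in HC and 11.4, 15.3, 14.4 and 15.7 in Ctrl, but 19.5, 20.8, 21.9 and 16.6 in NLH and 21.4, 19.8, 22.1 and 15.6 in LH. Every NLH mouse lay above every Ctrl mouse, and 3 of 4 LH mice did so, with LH replicate 4 just below the highest Ctrl mouse. HC and Ctrl lay on top of each other. Among all transcripts, 5.07% had NLH and Ctrl groups that did not overlap, and for Ctrl vs. HC, LH vs. Ctrl and LH vs. NLH this share was 4.52%, 5.93% and 3.22%.

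On the log2 scale, Gad1-201 differed by 0.47 (SE 0.15) in NLH vs. Ctrl, with a limma p of 0.00583, adjusted p = 0.633 over all 80137 transcripts. In LH vs. Ctrl it differed by 0.47 (SE 0.15), with a limma p of 0.00598, adjusted p = 0.271. Neither passed the adjusted threshold. In Ctrl vs. HC the difference was -0.01 (SE 0.15), and in LH vs. NLH it was 0.00 (SE 0.15). Gad1-206 was 23.6 ± 0.656 FPKM (SD, n = 4) in Ctrl, 20.2 ± 2.98 FPKM in NLH and 22.3 ± 4.94 FPKM in LH, a log2 difference of -0.24 (SE 0.13) in NLH vs. Ctrl with a limma adjusted p of 0.994.

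As a share of Gad1-201 and Gad1-206 together, Gad1-201 made up 39.4%, 42.9%, 32.4% and 37.2% in HC, 32.6%, 39.4%, 37.1% and 40.8% in Ctrl, 52.6%, 49.7%, 47.7% and 47.9% in NLH, and 50.1%, 40.4%, 55.9% and 42.4% in LH. The NLH mice lay above all HC and Ctrl mice, and the LH mice fell into a pair near 40% and a pair above 50%. The mean share was 12.0 percentage points higher in NLH than in Ctrl and 9.73 points higher in LH than in Ctrl. These differences are a description without a test, since Gad1-201 was singled out for NLH and Ctrl values that did not overlap. Of 6314 genes with a pair of transcripts of at least 10% each, 6.92% had shares that did not overlap between NLH and Ctrl, and 4.96%, 6.65% and 4.17% in Ctrl vs. HC, LH vs. Ctrl and LH vs. NLH. A share within a library does not change when all values of that library are multiplied by a common factor. Whether other properties of the libraries, such as their depth, enter the share was not tested. Leaving out any 1 mouse gave a difference between 10.4 and 13.1 points in NLH vs. Ctrl and between 6.83 and 12.0 points in LH vs. Ctrl. In NLH vs. Ctrl the sign could not change in this way, since the shares do not overlap, so that range is no check of the difference. The sum of both transcripts overlapped between the groups, at 37.8 ± 1.95 FPKM in Ctrl and 39.8 ± 5.00 FPKM in NLH (SD, n = 4).

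**Figure D2:**
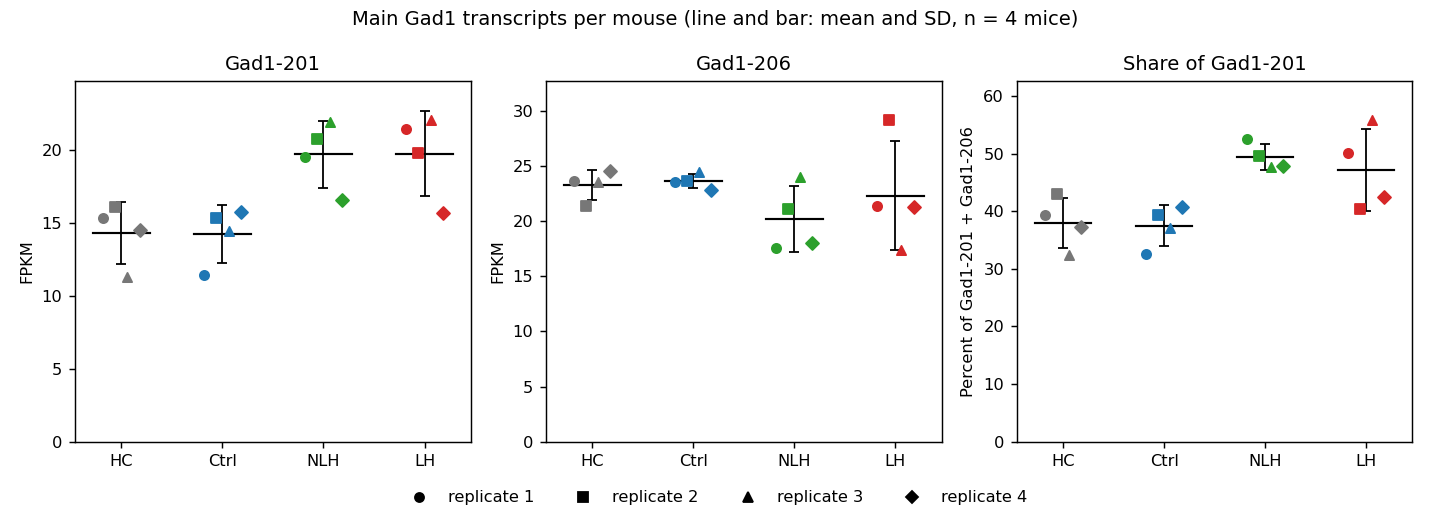
FPKM of Gad1-201 (left) and Gad1-206 (middle) and the percent of Gad1-201 in their sum (right) for each of the 16 mice, with the marker shape giving the replicate number and the line and bar the mean and SD of 4 mice. The 4 NLH mice lie at 47.7% to 52.6% Gad1-201, above the Ctrl range of 32.6% to 40.8%, and the LH mice spread from 40.4% to 55.9%.

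Over all member transcripts, 0 of 27 passed the adjusted threshold of limma in each comparison, where 0.00374%, 0.0125%, 0.0462% and 0.0412% of all transcripts were called in Ctrl vs. HC, NLH vs. Ctrl, LH vs. Ctrl and LH vs. NLH. At an unadjusted limma p under 0.05 there was 1 member transcript in each comparison: Vip-201, Gad1-201, Gad1-201 and Gad1-208 in that order, against 3.45%, 5.12%, 10.7% and 8.72% of all transcripts. With the study's own unadjusted test on FPKM at a p under 0.05 there was also 1 each, Reln-206, Gad1-201, Gad1-201 and Gad1-208, against 6.68%, 7.2%, 7.69% and 4.47% of all transcripts. Gad1-208 is a retained-intron transcript with 1.88% of the gene, at a mean of 0.878 FPKM (SD 0.0634) in NLH and 0.601 FPKM (SD 0.152) in LH. Reln-206, also a retained-intron transcript, had a mean of 0.0962 FPKM over the mice. Apart from Gad1 and Reln, 1 transcript held 96.5% or more of each member gene's FPKM, so for those 8 genes a sum over transcripts and the main transcript are nearly the same quantity.

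Gad2 (chr2:22622205-22693874, plus strand) was the member with the smallest limma p in LH vs. Ctrl. Its FPKM was 13.04, 12.3, 12.1 and 13.1 in HC, 11.1, 12.9, 13.3 and 12.9 in Ctrl, 15.0, 14.5, 13.9 and 12.3 in NLH, and 19.7, 15.5, 14.8 and 12.0 in LH. In both NLH and LH, 3 of 4 mice lay above every Ctrl mouse, and replicate 4 lay among the Ctrl mice. The log2 difference in LH vs. Ctrl was 0.28 (SE 0.13, 95% interval 0.01 to 0.55), with a limma p of 0.0398, adjusted p = 0.400. In NLH vs. Ctrl it was 0.15 (SE 0.13), limma adjusted p = 0.982, and in LH vs. NLH 0.13 (SE 0.13), limma adjusted p = 0.816. Without LH replicate 1, the highest mouse, the LH vs. Ctrl difference was 0.16.

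Slc32a1 (chr2:158610767-158615748, plus strand), the vesicular GABA transporter, averaged 4.03 ± 0.659 FPKM in HC mice, 4.197 ± 0.220 in Ctrl mice, 4.20 ± 0.307 in NLH mice and 4.79 ± 0.861 in LH mice (SD, n = 4). LH replicates 1 and 2 gave the highest values of all 16 mice with 5.22 and 5.79 FPKM, and LH replicates 3 and 4 gave 4.15 and 4.00 FPKM, inside the Ctrl range of 3.904 to 4.42. The log2 difference in LH vs. Ctrl was 0.17 (SE 0.14), limma adjusted p = 0.682.

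Among the neuropeptide genes, Vip (chr10:5639218-5647617, plus strand), the gene of vasoactive intestinal peptide, had the largest fold differences in Ctrl vs. HC, LH vs. Ctrl and LH vs. NLH, but not in NLH vs. Ctrl, where that of Sst was larger. Its FPKM was 1.22, 0.911, 1.76 and 1.76 in HC, 1.60, 1.70, 2.70 and 2.96 in Ctrl, 2.85, 2.04, 1.45 and 2.79 in NLH, and 3.32, 1.91, 3.15 and 3.57 in LH. The mean was lowest in HC with 1.41 FPKM and highest in LH with 2.99 FPKM. In Ctrl vs. HC the log2 difference was 0.62 (SE 0.28), a fold of 1.54 (95% interval 1.02 to 2.32), with a limma p of 0.0397, adjusted p = 1. In LH vs. Ctrl it was 0.41 (SE 0.28), limma adjusted p = 0.616.

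The Vip sum leaves out part of its locus. Assembled transcripts at the locus that carry no gene name, 2 in number, held 46.3% of the FPKM there, with means of 1.84 ± 0.290 FPKM for HC, 1.71 ± 0.546 for Ctrl, 1.77 ± 0.596 for NLH and 2.40 ± 0.883 for LH (SD, n = 4). Here Ctrl had the lowest mean and did not lie above HC. With them added to the sum, a setting added after the values had been seen, Vip in Ctrl vs. HC had a log2 difference of 0.28, with a limma p of 0.0699, adjusted p = 1. In LH vs. Ctrl it was then 0.43, with a limma p of 0.00751, adjusted p = 0.206, and in LH vs. NLH 0.42, with a limma p of 0.00988, adjusted p = 0.543. Such unnamed transcripts held 15.3% of the FPKM of the Reln locus, 7.69% of the Cck locus and 1.92% of the Gad1 locus, and there were none at the other 6 loci.

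Sst (chr16:23889573-23890958, minus strand), the gene of somatostatin, had FPKM of 47.9, 56.4, 39.4 and 51.1 in HC, 35.2, 52.2, 47.4 and 53.9 in Ctrl, 44.7, 65.6, 62.6 and 59.0 in NLH, and 66.5, 66.1, 41.6 and 38.8 in LH. NLH replicates 2, 3 and 4 lay above every Ctrl mouse, and the LH mice formed a high and a low pair. The log2 difference was 0.30 (SE 0.19) in NLH vs. Ctrl, limma adjusted p = 0.982, and 0.15 (SE 0.19) in LH vs. Ctrl, limma adjusted p = 0.810.

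Cck (chr9:121489824-121495694, minus strand), the gene of cholecystokinin, varied little outside LH and widely inside it. It had 67.0 ± 4.04 FPKM in HC, 69.1 ± 3.10 in Ctrl and 69.7 ± 2.41 in NLH (SD, n = 4), a coefficient of variation of 6.03%, 4.49% and 3.45%. The LH mice had 83.1, 94.6, 60.6 and 42.5 FPKM, a coefficient of variation of 33.1%, so that LH replicates 1 and 2 were the highest of the 16 mice and LH replicates 3 and 4 the lowest. The mean of LH, 70.2 FPKM, therefore lay beside that of Ctrl, and the log2 difference was -0.04 (SE 0.17), limma adjusted p = 0.960.

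Npy (chr6:49822710-49829507, plus strand), the gene of neuropeptide Y, averaged 9.47 ± 1.09 FPKM in HC mice, 11.45 ± 1.69 in Ctrl mice, 11.2 ± 1.97 in NLH mice and 10.8 ± 2.43 in LH mice (SD, n = 4). Its largest difference was in Ctrl vs. HC, with a log2 difference of 0.27 (SE 0.17), limma adjusted p = 1. Unlike for Cck and Sst, its high LH mice were replicates 1 and 3, with 12.9 and 12.8 FPKM, and its low ones replicates 2 and 4, with 8.90 and 8.43 FPKM.

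Pvalb (chr15:78191114-78206400, minus strand), the gene of parvalbumin, averaged 12.98 ± 1.31 FPKM in HC mice, 12.3 ± 0.736 in Ctrl mice, 13.8 ± 1.77 in NLH mice and 14.5 ± 2.15 in LH mice (SD, n = 4). Single LH mice had 14.3, 17.6, 13.01 and 13.03 FPKM against 13.1, 12.2, 11.4 and 12.5 FPKM in Ctrl, so the lowest LH mice lay at the top of the Ctrl range. The log2 difference in LH vs. Ctrl was 0.22 (SE 0.12, 95% interval -0.03 to 0.48), with a limma p of 0.0823, adjusted p = 0.504.

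Calb2 (chr8:110137502-110168210, minus strand), the gene of calretinin, varied by the mouse more than by the group. The lowest of the 16 mice was a Ctrl mouse with 3.38 FPKM and the highest an LH mouse with 10.4 FPKM, a ratio of 3.08, and the LH mice had 9.62, 10.4, 3.54 and 4.50 FPKM. Group means lay between 6.16 FPKM in Ctrl and 7.03 FPKM in NLH, and the 95% interval of LH vs. Ctrl ran from -0.61 to 0.83 on the log2 scale. Reln (chr5:21884454-22344702, minus strand), the gene of reelin, averaged 5.24 ± 1.25 FPKM in HC mice, 6.10 ± 1.01 in Ctrl mice, 7.32 ± 1.67 in NLH mice and 6.63 ± 2.12 in LH mice (SD, n = 4). Its log2 difference in NLH vs. Ctrl was 0.24 (SE 0.24), limma adjusted p = 0.998. The long coding transcript Reln-207 held 65.95% of its FPKM and the other long coding transcript, Reln-201, 12.3%, which reached 2.90 FPKM in the highest mouse.

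**Figure D3:**
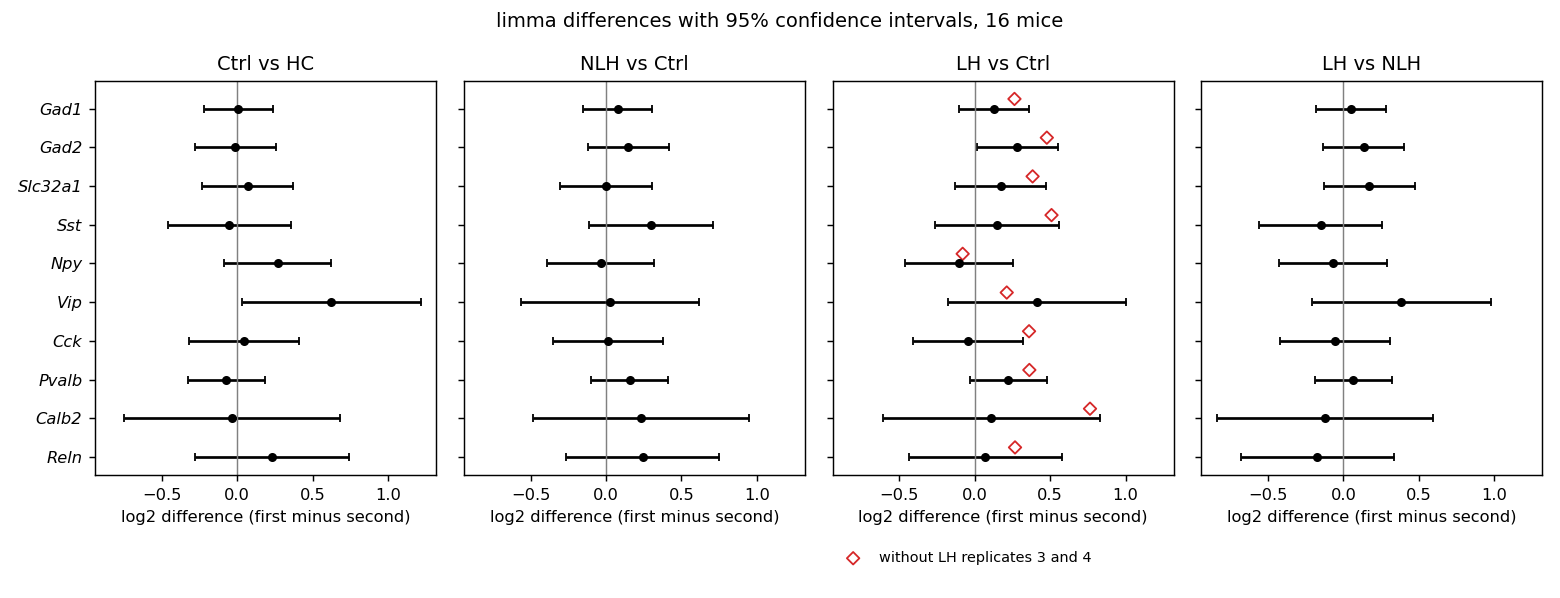
Log2 differences of the 10 member genes (points) with 95% confidence intervals (bars) from limma in the 4 comparisons, the first-named group minus the second, over 16 mice, with red diamonds for LH vs. Ctrl without LH replicates 3 and 4. All intervals but those of Vip in Ctrl vs. HC and Gad2 in LH vs. Ctrl include 0, and 9 of 10 diamonds lie above 0.

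The outcome of LH vs. Ctrl depended on which LH mice entered. Without LH replicates 3 and 4, a setting chosen with these libraries known, 2 of 10 members passed the adjusted threshold of limma: Cck with a log2 difference of 0.36 (adjusted p = 0.0260) and Gad2 with 0.48 (adjusted p = 0.0323). In the same setting 5.42% of all genes were called, and the median log2 difference over all genes was 0.20. After median-ratio size factors were applied to these mice as well, a setting added after the values had been seen, 0 of 10 members and 0.0767% of all genes were called. Cck then had a log2 difference of 0.11 and Gad2 of 0.23 (limma adjusted p = 0.472 and 0.398), and the median over all genes was -0.01.

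Members also varied together from mouse to mouse. Of the 45 pairs of members, 38 had a positive Pearson's r of log2(FPKM + 0.1) over the 16 mice, with a median r of 0.33 and a range of -0.23 to 0.81. A Benjamini-Hochberg adjusted permutation p under 0.05 was reached by 10 pairs, all of them among Gad1, Gad2, Slc32a1, Sst, Cck and Calb2. Such correlations were common in these libraries: over all pairs of the 10436 genes with a mean of at least 1 FPKM the median r was 0.27, and 14.1% of pairs reached the size of the smallest r among those 10 (0.62), as did 11 of the 45 member pairs. Sst and Calb2 had the highest value, r = 0.81 (permutation p = 0.000250, adjusted over 45 pairs = 0.00349) and Spearman's rho = 0.83 (permutation p = 0.000190, adjusted = 0.00270), and r was 0.73 without the 2 mice farthest from the median of Sst. Gad1 and Slc32a1 had r = 0.78 (permutation p = 0.000270, adjusted = 0.00349) and rho = 0.76 (permutation p = 0.000990, adjusted = 0.00636), and r was 0.73 without the 2 mice farthest from the median of Gad1. The enzyme genes Gad1 and Gad2 had r = 0.64 (permutation p = 0.00832, adjusted = 0.0374) and rho = 0.80 (permutation p = 0.000400, adjusted = 0.00360), and r was 0.71 without the 2 mice farthest from the median of Gad1. With the mean of each group removed, the median r over the 45 pairs was 0.26, and without LH replicates 3 and 4 it was 0.38.

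Members with high pairwise correlations also varied along with the scale of the library. The log2 level of Cck had r = 0.90 with the log2 size factor over the 16 mice, Gad1 0.86, Sst 0.83, Calb2 0.81, Slc32a1 0.72 and Gad2 0.70, while Pvalb had 0.39, Reln 0.33, Npy 0.31 and Vip -0.12. These values are given as a description, since the size factor and the member come from the same library. After division by the size factors, the median r over the 45 pairs was 0.02, and 0 of 45 pairs had an adjusted permutation p under 0.05. An r of at least 0.62 in size was then found for 1 of the 45 member pairs and 6.02% of all gene pairs, whose median r was 0.00. Sst and Calb2 kept the highest value with r = 0.64, and Gad2 and Vip had r = 0.59. Gad1 and Cck went from r = 0.65 to -0.55.

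**Figure D4:**
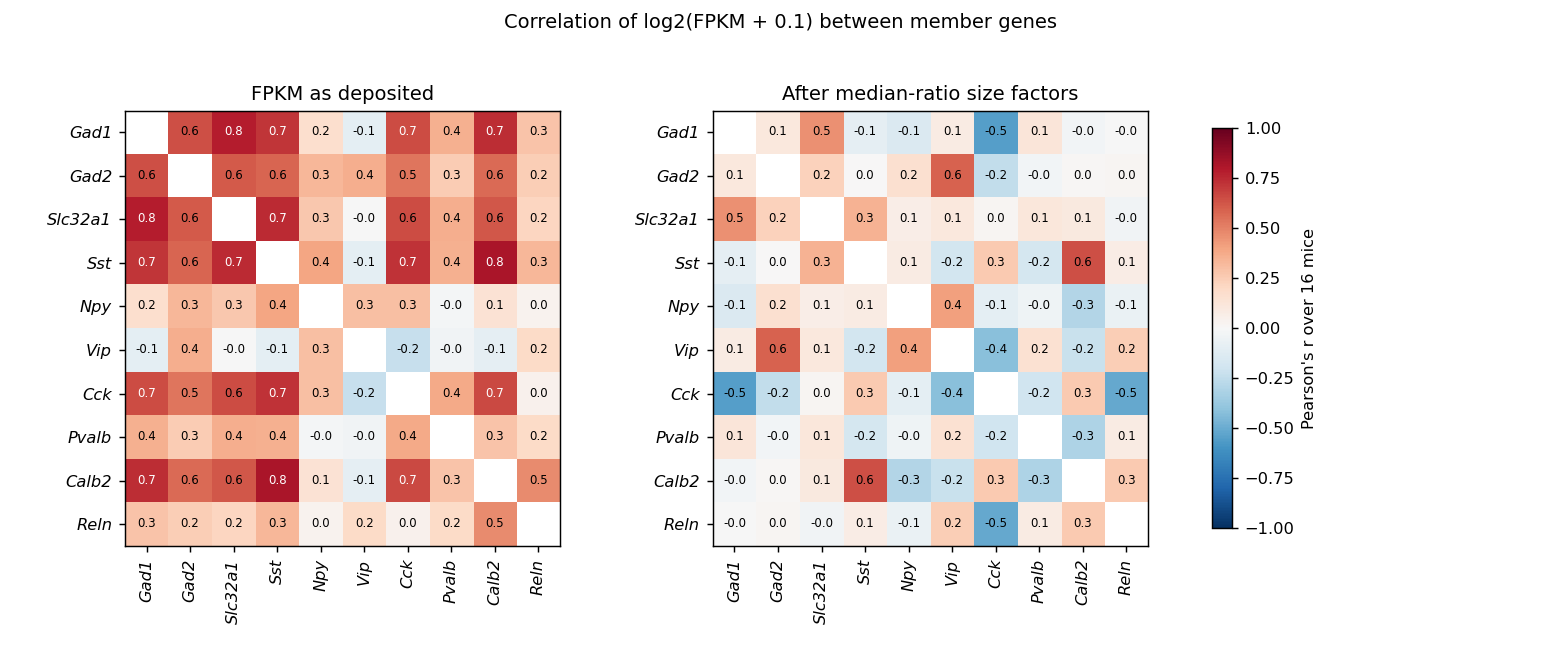
Pearson's r of log2(FPKM + 0.1) over 16 mice for each pair of the 10 member genes, from the values as deposited (left) and with size factors divided out (right), on a scale from -1 to 1. The median over 45 pairs is 0.33 on the left and 0.02 on the right, and Sst with Calb2 keeps the highest value, 0.81 and 0.64.

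**Figure D5:**
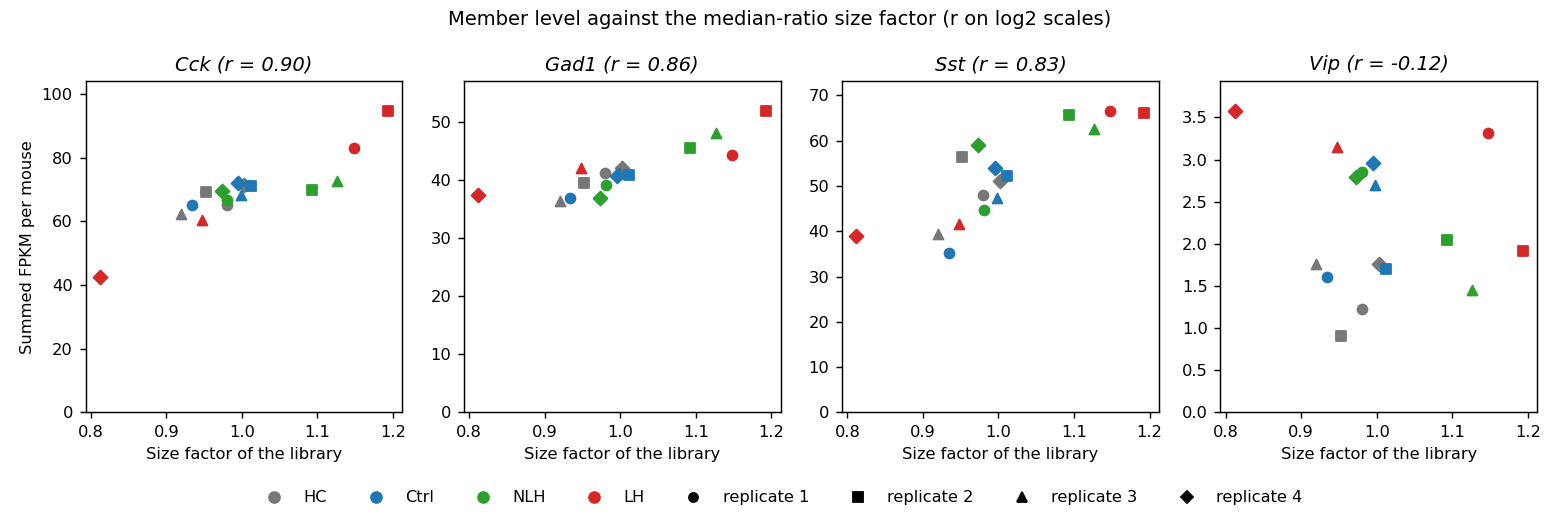
Summed FPKM of Cck, Gad1, Sst and Vip against the size factor of the library for the 16 mice, colored by group, with the marker shape giving the replicate number and r on log2 scales above each panel. Cck, Gad1 and Sst increase with the size factor, at r = 0.90, 0.86 and 0.83, and Vip does not, with r = -0.12.

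The genes whose levels as deposited lay closest to those of the GABA synthesis genes also followed the scale of the library. The mean of the standardized log2 levels of Gad1, Gad2 and Slc32a1, with group means removed, was compared with 10433 genes of at least 1 FPKM over the 16 mice. The closest were Add1 (r = 0.97), Hsp90ab1 (r = 0.96), Syn2 (r = 0.96), Rtn1 (r = 0.96) and Lancl2 (r = 0.96). Add1 encodes a protein of the membrane skeleton, Hsp90ab1 a chaperone found in all cells and Syn2 a synaptic vesicle protein. Sst came at rank 884 (r = 0.85), Cck at 1027 (r = 0.84) and Calb2 at 1479 (r = 0.82), and Vip at rank 10165 (r = -0.38). The mean of the synthesis genes had itself r = 0.94 with the log2 size factor, group means removed, and the 5 closest genes had 0.94 to 0.96. After division by the size factors, a setting added after the values had been seen, 0 of these 5 were among the 5 closest: Add1 came at rank 13 (r = 0.78), Hsp90ab1 at 92 (r = 0.65) and Syn2 at 1284 (r = 0.36), while Sst came at 2427 (r = 0.24), Calb2 at 4289 (r = 0.08) and Cck at 9007 (r = -0.36).

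Wider lists of genes of the inhibitory system gave no call either. The list of GABA synthesis and handling includes the members Gad1, Gad2 and Slc32a1, which thus also enter its counts and medians. Of 12 genes of GABA synthesis and handling, 14 measured interneuron transcription factors, 24 further interneuron markers, 12 receptors of the peptides and reelin, and 6 genes of the inhibitory postsynapse, 0 passed the adjusted threshold of limma in any of the 4 comparisons. At an unadjusted limma p under 0.05 in LH vs. Ctrl, 1 gene was higher among the GABA genes (Gad2 itself), 1 lower among the transcription factors, 1 higher and 1 lower among the further markers, 1 higher and 1 lower among the receptors, and 1 lower in the postsynapse, where 1286 genes were higher and 821 lower overall. The median log2 differences of the 5 lists in this comparison were 0.12, -0.04, 0.13, -0.03 and -0.07, against 0.00 over all genes. In the same order they were 0.02, -0.24, -0.06, 0.01 and -0.12 in LH vs. NLH, against -0.06 over all genes, with 5 transcription factors positive and 9 negative and 1 postsynapse gene positive and 5 negative. The GABA genes were 7 positive and 5 negative, the further markers 9 and 15, and the receptors 6 and 6. Of all genes, 7111 were positive and 10887 negative in LH vs. NLH. In Ctrl vs. HC the medians of the lists lay between -0.01 and 0.07, against 0.02 over all genes, and in NLH vs. Ctrl between 0.04 and 0.11, against 0.06. The lowest adjusted p of these lists belonged to Dab1, the adaptor that carries the reelin signal into the cell, at 20.7 ± 4.46 FPKM in LH and 12.8 ± 3.10 in Ctrl (SD, n = 4), a log2 difference of 0.69 (SE 0.17), limma adjusted p = 0.139. Reln, the gene of reelin itself, had a log2 difference of 0.07 in the same comparison.

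Named by the smallest p of their list, the other genes had these values in LH vs. Ctrl. Adarb2, a marker of interneurons from the caudal ganglionic eminence, had 2.62 ± 0.425 FPKM in LH and 4.06 ± 0.349 in Ctrl (log2 difference -0.62, limma adjusted p = 0.178). Kcnc2, a potassium channel of fast-spiking cells, had 5.28 ± 1.28 and 3.76 ± 0.488 FPKM (log2 difference 0.46, limma adjusted p = 0.295). Chrna2, a nicotinic receptor subunit of some Sst cells, had 0.255 ± 0.0981 and 0.431 ± 0.0540 FPKM (log2 difference -0.62, limma adjusted p = 0.327). Igsf9b, an adhesion molecule of inhibitory synapses, had 0.610 ± 0.145 and 1.04 ± 0.0937 FPKM (log2 difference -0.70, limma adjusted p = 0.305). Vipr2, a receptor of Vip, was near 0 with 0.0579 ± 0.0577 and 0.142 ± 0.0612 FPKM. Satb1, Slc38a1 and Iqsec3 had limma adjusted p of 0.642, 0.531 and 0.682.

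Between the LH and NLH groups, Sox6, a transcription factor of Sst and Pvalb cells that glia also express, had 3.08 ± 1.26 FPKM in LH and 7.08 ± 4.28 in NLH (SD, n = 4, log2 difference -1.11, limma adjusted p = 0.442). Sstr3, a somatostatin receptor, had 1.73 ± 0.487 and 2.23 ± 0.0583 FPKM (log2 difference -0.38, limma adjusted p = 0.632). Crh, the gene of corticotropin-releasing hormone, had 0.331 ± 0.186 and 0.139 ± 0.0935 FPKM (log2 difference 0.81, limma adjusted p = 0.653). Slc6a13, Abat, Kcnc1, Lrp8 and Nlgn2 had limma adjusted p of 0.663, 0.779, 0.680, 0.677 and 0.794.

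Markers of other tissues and cell types were summed in each mouse. All 8 dentate granule cell and 7 of 8 CA pyramidal cell markers of the lists were measured and 0 of these were at 0 in all mice. The summed level of the 10 thalamus and habenula markers reached 35.2 FPKM in the highest LH mouse and 10.2 FPKM in the lowest, and lay between 11.7 and 16.4 FPKM in the HC, Ctrl and NLH mice. The 9 measured striatum markers summed to 19.6 to 34.4 FPKM in LH and 22.0 to 24.7 FPKM in Ctrl, the 7 CA pyramidal markers to 48.0 to 104 FPKM in LH and 72.5 to 87.1 FPKM in Ctrl, and the 8 choroid plexus markers to 2.67 to 105 FPKM in LH, 4.87 to 71.6 FPKM in NLH, 19.98 to 58.6 FPKM in Ctrl and 3.96 to 43.7 FPKM in HC. The log2 differences of the 8 dentate granule cell markers were all positive in Ctrl vs. HC (median 0.17) and all negative in NLH vs. Ctrl (median -0.18) and LH vs. Ctrl (median -0.14), and 4 were positive and 4 negative in LH vs. NLH (median 0.02). Of the 10 thalamus and habenula markers, 4 were positive in Ctrl vs. HC (median -0.06), 5 in NLH vs. Ctrl (median 0.00), 8 in LH vs. Ctrl (median 0.27) and 9 in LH vs. NLH (median 0.18). Of the 8 choroid plexus markers, 8 were positive in Ctrl vs. HC (median 0.52), 1 in NLH vs. Ctrl (median -0.49), 2 in LH vs. Ctrl (median -0.21) and 8 in LH vs. NLH (median 0.29). The medians of the striatum markers in the 4 comparisons, in the same order, were -0.01, 0.09, 0.14 and 0.12, those of the CA pyramidal markers 0.03, -0.05, -0.18 and -0.09, those of the Cajal-Retzius markers -0.03, 0.05, 0.07 and -0.12, and those of further excitatory neuron markers 0.07, -0.06, -0.05 and 0.01. The Cajal-Retzius list includes the members Reln and Calb2 among its 5 measured genes. Its median is the value of Calb2 itself in Ctrl vs. HC and LH vs. NLH, and that of Reln in LH vs. Ctrl. Defining Cajal-Retzius markers were low, with Trp73 at 0.305 FPKM and Lhx1 at 0.0138 FPKM over the mice, beside 6.32 FPKM of Reln and 6.60 FPKM of Calb2. None of these lists had a gene past the adjusted threshold of limma, and their part in the member values was not tested.

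Named genes on the opposite strand were measured at the Gad1 and Reln loci. Gad1os, antisense to Gad1, had a mean of 0.0309 FPKM, and Gm10475 and Gm16110, antisense to Reln, had 0.0753 and 0.248 FPKM. Library strand is not given in the sources used here, so reads of a gene and its antisense partner may not have been told apart.

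Start sites of the members were searched for the cyclic AMP response element, the site of the activity-regulated factor CREB, in RefSeq promoter windows of 250 bases before the start (GRCm38 build). Windows were given for 9 of the 10 members, and Calb2 had none. The full element, TGACGTCA on either strand, was present in Sst alone among these 9, starting 48 bases before the start site, and in 1.55% of 32851 promoters. Its shorter core TGACG, which is also part of the full element, was present in Gad2, Sst, Vip and Cck among these 9 and in 17.8% of all promoters. A match of letters is a description and not a measurement of binding.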

How the data were processed

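RNA-seq of the hippocampus was used from 16 mice, 4 in each of 4 groups. The values are FPKM per transcript, deposited by the authors after assembly and merging with StringTie 1.2.3 and quantification with Cufflinks on mm10. The paper's methods name HISAT2 as the aligner and the submitters' processing notes name STAR 2.42a. No read counts were used, and library strand is not given in the sources used here.

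FPKM was summed per gene name, and log2(FPKM + 0.1) of all 16 mice was fitted with 4 group means in limma 3.58.1 (R 4.3.3; trend and robust moderation, two-sided), with Benjamini-Hochberg adjustment over 18287 genes or 80137 transcripts. The t-test of the methods was an alternative. Single values were compared by exact permutation over 70 splits, and correlations by 100000 permutations. Positions came from GENCODE vM21. Software was Python 3.11.15, numpy 2.4.6, pandas 2.3.3, scipy 1.17.1, matplotlib 3.10.9 and the R package data.table (1.17.8). The fit was tested on simulated data. Alternatives were other added constants, a minimum mean of 1 FPKM, size factors, only transcripts with an Ensembl identifier, only the groups compared, a replicate block, each mouse or LH replicates 3 and 4 left out, and, added after seeing the values, unnamed transcripts of a locus, size factors without LH replicates 3 and 4 or for the genes closest to the synthesis genes, and all Gad1 transcripts as the denominator of the Gad1-201 share. Correlations were repeated on linear FPKM and with group means removed.

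Members and gene lists were chosen with earlier results of these data known. Named were all members, the 2 genes with the smallest p of each list for either LH comparison, and the 5 genes closest to the synthesis genes. Of the listed genes, 10 had no row and were not analysed here. The labels call the mice of a group separate samples.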

Additional observations from a re-analysis of the deposited data

Results flagged for a closer look

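Gad1 in Ctrl replicate 1 had a summed FPKM of 36.98, while the other 3 Ctrl mice lay between 40.8 and 41.3 FPKM. Its distance to the nearest of them was 0.885 of the range of the group, above Dixon's 95% critical value for 4 samples. It was the only one of 44 groups of 4 values examined, 10 members and the Gad1-201 share in 4 groups each, and chance alone would mark about 1 in 20. Without this mouse the log2 difference of Gad1 was 0.05 in Ctrl vs. HC. Its size factor was 0.934, the lowest of the Ctrl mice, and the part of the library's scale in the value was not tested.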

How the results depend on the processing

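The counts of called members stayed at 0 in every comparison under every alternative but 1: without LH replicates 3 and 4 together, 2 members passed in LH vs. Ctrl, and the range over the settings that leave out mice was 0 to 2. Member transcripts called by the t-test on FPKM were 1 in each comparison, since that test was not adjusted. The member pairs with an adjusted permutation p under 0.05 numbered 10, none (0) after size factors, and 5 to 13 with a mouse left out, the lowest without LH replicate 2. With size factors, r with the synthesis genes changed sign for Vip (0.098), Cck (-0.36), Pvalb (-0.32) and Reln (-0.045). Under alternatives that leave out no mouse alone, these differences changed sign. With size factors they were Gad1 in Ctrl vs. HC at -0.024, and in NLH vs. Ctrl Gad1 at -0.0034, Vip at -0.048 and Cck at -0.067. With the assembled transcripts added, Gad1 in Ctrl vs. HC was -0.0024. Slc32a1 in NLH vs. Ctrl was 2.4e-05 with 1 added and 0.0011 on FPKM as used by the t-test, where Cck was 0.022 in LH vs. Ctrl and 0.0092 against NLH. With size factors and without LH replicates 3 and 4, Cck was 0.11 and Vip -0.026 in LH vs. Ctrl, and Sst was 0.040, Cck 0.18 and Calb2 0.36 in LH vs. NLH. In each of these cases but Vip in LH vs. Ctrl the difference was under its SE in the fit of all mice, and the cause was not tested.

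With mice left out, ranges of log2 differences that crossed 0 were as follows. For Ctrl vs. HC they were -0.034 to 0.045 for Gad1, -0.044 to 0.047 for Gad2, -0.045 to 0.14 for Slc32a1, -0.15 to 0.082 for Sst and -0.21 to 0.23 for Calb2. For NLH vs. Ctrl they were -0.037 to 0.035 for Slc32a1, -0.13 to 0.044 for Npy, -0.11 to 0.22 for Vip, -0.015 to 0.034 for Cck and -0.026 to 0.41 for Calb2. For LH vs. Ctrl they were -0.20 to 0.0031 for Npy, -0.21 to 0.36 for Cck, -0.15 to 0.76 for Calb2, -0.082 to 0.30 for Reln and -0.24 to 0.081 for Gad1-206, while Gad2 stayed positive at 0.16 to 0.48. For LH vs. NLH they were -0.033 to 0.19 for Gad1, -0.27 to 0.21 for Sst, -0.17 to 0.039 for Npy, -0.22 to 0.35 for Cck, -0.032 to 0.20 for Pvalb, -0.36 to 0.53 for Calb2 and -0.33 to 0.055 for Reln. In LH vs. Ctrl, ranges that stayed above 0 were also 0.045 to 0.26 for Gad1 and 0.077 to 0.38 for Slc32a1. Sst there ran from 0.015 to 0.51, Vip from 0.21 to 0.61 and Pvalb from 0.13 to 0.36. In NLH vs. Ctrl, Gad1 stayed at 0.014 to 0.14, Gad2 at 0.089 to 0.21 and Sst at 0.17 to 0.42. Pvalb stayed there at 0.089 to 0.23 and Reln at 0.14 to 0.40.

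Replicate numbers were not found to pair the mice: after removal of group means, mice with the same number had a median r of -0.0230 over 24 pairs and other pairs 0.0035. With the replicate number as a block, 0 members and 0 member transcripts were called. With 4 mice a group and an estimated 41.2 fragments for Vip in the mouse with the fewest for that gene, differences well inside the intervals given were not detectable.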
